A study of Homo sapiens with 3 samples.

Results

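The nuclear genes that encode the subunits of the mitochondrial oxidative phosphorylation complexes were followed in HepG2, an established line of human liver tumour cells, after exposure to graphene oxide (GO) or to its reduced form (rGO), from which oxygen groups have been removed. Members were found by gene symbol, from the NDUFA, NDUFB, NDUFC, NDUFS, NDUFV, SDH, UQCR, CYC1, COX and ATP5 families. This choice was made with earlier results of these data known. Each gene was read from the probe set with the highest mean over the arrays among those that carried exactly 1 symbol. The symbols gave 84 of 18417 genes measured, and 73 of these are structural subunits: 34 of complex I, 3 of complex II, 8 of complex III, 12 of complex IV and 16 of complex V. The other 11 are tissue isoforms, an inhibitor, pseudogenes and similar names, and are described apart. NDUFC2, NDUFS5 and ATP5F1E shared their probe set with other symbols and are not counted among the 73, and some other nuclear subunits were not analysed here.

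The series holds 3 Affymetrix arrays, with 1 array in each group. The groups were cells exposed to GO for 24 h, cells exposed to rGO for 24 h, and control cells with no treatment. All were cultures of the same cell line in MEM medium, and each material was given at the EC20 found for it, the dose with a 20% effect in viability assays. Concentrations are not in the labels, so the materials may have been dosed differently, and their values are set side by side without a comparison between the materials.

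The deposited values are log2 expression values, so a difference of 1 is a 2-fold difference. With 1 array in each group, no value has a replicate error and no test was possible, and differences between single cultures cannot be told apart from an effect of the material. The median over all 33297 probe sets was 6.63 in the GO array, 6.66 in the rGO array and 6.65 in the control array. Hepatocyte products were abundant in all arrays. Of 9 listed genes 8 were measured, and these, such as ALB and AFP, all lay between 10.8 and 13.6. Leukocyte markers (3 measured) lay between 3.56 and 6.33 and endothelial markers (3 measured) between 4.98 and 6.08, all under the filter level of 6.66, which is the 40th percentile of gene means. Of the fibroblast and stellate cell markers (4 measured), DCN lay between 3.71 and 3.88, whereas ACTA2 and COL1A1 were past the filter. The summed log2 level of those 4 was 27.3 in the GO array, 27.1 in the rGO array and 27.5 in the control array. Where a gene had more than 1 probe set past the filter, with values that were not identical (366 genes), the difference from control disagreed between a pair of its probe sets with a robust SD per probe set (the scaled median absolute deviation of the gap, over the square root of the pair's size) of 0.088 for GO and 0.061 for rGO. This is a spread within the arrays and does not stand in for replicate cultures.

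Oxidative phosphorylation passes electrons from NADH through complex I, and from succinate through complex II, by way of coenzyme Q to complex III, cytochrome c and complex IV, where oxygen is reduced. The protons that complexes I, III and IV move across the inner mitochondrial membrane drive ATP synthase, complex V. All but complex II contain subunits encoded in mitochondrial DNA. In complexes I and III these work together with a few nuclear core subunits, and in complex IV they are the catalytic subunits. The catalytic head of complex V is encoded by nuclear genes. Many small nuclear accessory subunits stabilise or assemble the complexes. Hepatocytes are rich in mitochondria, and HepG2 cells in culture keep oxidative phosphorylation beside strong glycolysis. None of the mitochondrially encoded subunits (13 listed) had a probe set with its symbol that could be used, so everything below concerns nuclear genes.

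In the GO array the subunit genes did not lie together. Their differences from control ran from -1.34 for NDUFB3 to 0.48 for NDUFA3, with a median of -0.081 over the 73 genes, where all genes measured had a median of -0.0059. Below 0 lay 48 of 73 (65.8%), against 51.1% of all genes and 48.2% of the 7367 genes past the 60th percentile of expression, a level that most subunits reach. At least 1.5-fold lower were 11 of 73 (15.1%), against 2.99% of all genes and 5.09% of those past the 60th percentile. None of the 73 was 1.5-fold higher, where the share over all genes was 1.41%. The median was thus small, and the larger differences sat in a tail of lower genes. In bulk RNA, fewer cells of a state and less of a transcript in each cell cannot be told apart. In size, 36 of the 73 lay within 0.2 of control, 9 lay more than 0.2 above it and 28 more than 0.2 below it. For all genes the 25th and 75th percentiles of the GO difference were -0.16 and 0.14. The share over all genes was not counted at 0.2, so these counts are not read as a result.

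**Figure D1:**
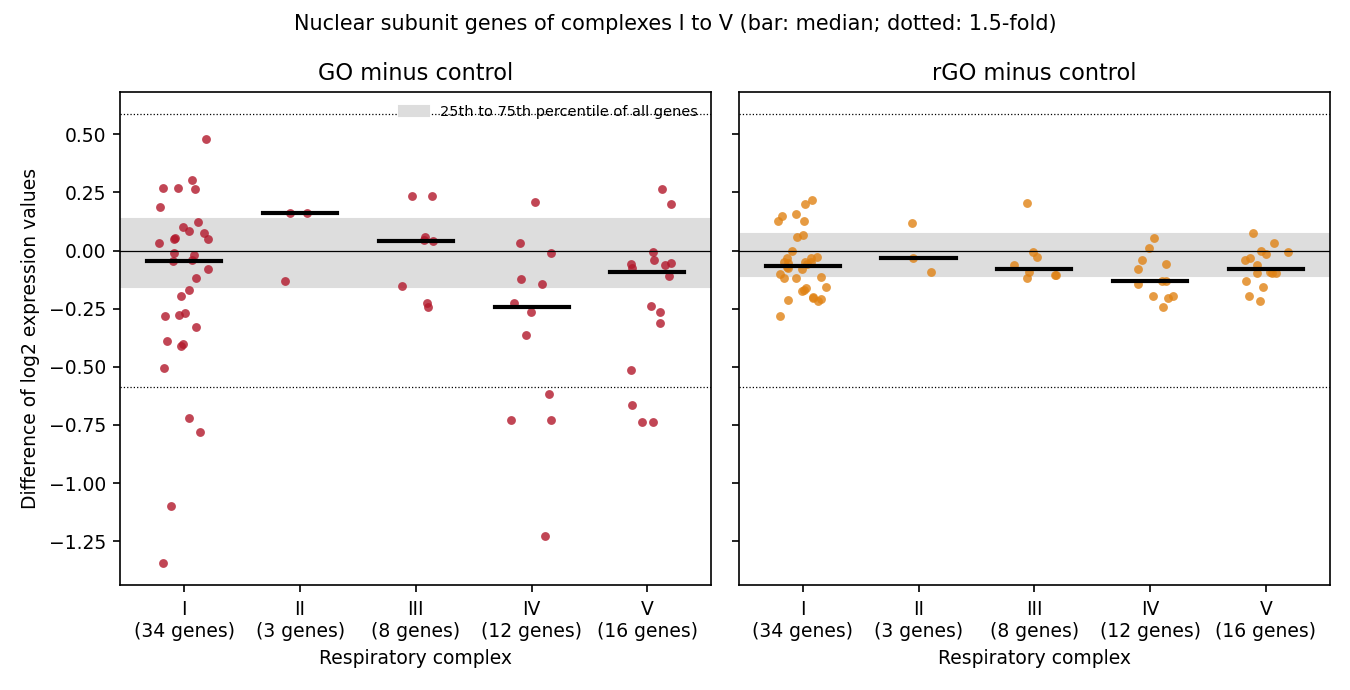
Difference of log2 expression values from control for each nuclear subunit gene, by complex, in the GO array (left) and the rGO array (right). Points are genes, black bars are medians, the grey band holds the 25th to 75th percentile of all 18417 genes and dotted lines mark 1.5-fold. The 11 genes under the lower dotted line belong to complexes I (4), IV (4) and V (3) and are seen in the GO panel, while the rGO panel has 0.

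By complex, the median difference in the GO array was -0.044 for complex I, 0.16 for complex II, 0.042 for complex III, -0.24 for complex IV and -0.093 for complex V. The 1.5-fold lower genes were 4 of 34 in complex I, 0 of 3 in complex II, 0 of 8 in complex III, 4 of 12 in complex IV and 3 of 16 in complex V. Of these 5 complexes, complex IV held the lowest median and the largest share of lower genes (33.3%). With 3 and 8 genes measured, complexes II and III rest on few values, and the complex III median turned to -0.055 when its members under the 60th percentile were left out.

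In the rGO array most subunit genes lay slightly below control. Their differences ran from -0.28 for NDUFA5 to 0.22 for NDUFB1, with a median of -0.074 over the 73 genes, where all genes had a median of -0.016. NDUFB1 read 7.09 with GO, 7.35 with rGO and 7.14 in control, not far above the filter level of 6.66. Below 0 lay 59 of 73 (80.8%), against 54.9% of all genes and 53.0% of those past the 60th percentile. The number at least 1.5-fold lower was 0 of 73 (0.282% of all genes), and at least 1.5-fold higher it was also 0 (0.076% of all genes). By complex the medians were -0.066 for complex I, -0.031 for complex II, -0.079 for complex III, -0.13 for complex IV and -0.078 for complex V. The GO and rGO differences share the control array, so the 2 sets of differences are not independent of each other.

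**Figure D2:**
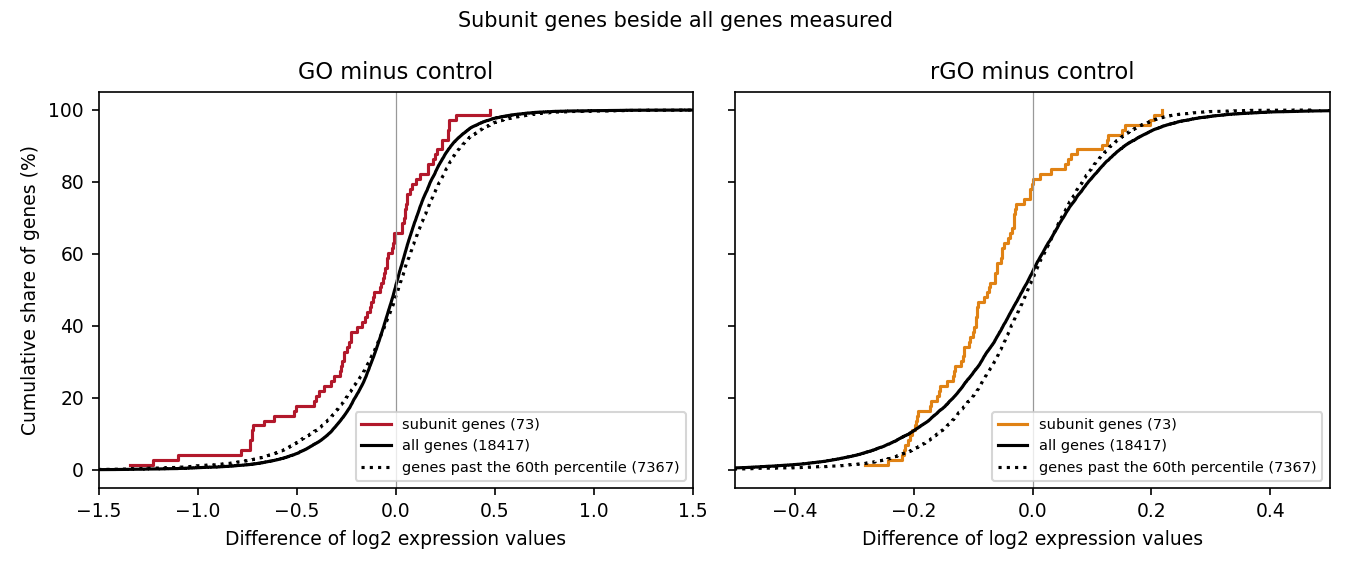
Cumulative share of genes (vertical axis, %) against the difference of log2 expression values from control, for GO (left) and rGO (right, on a narrower axis). The coloured line holds the 73 subunit genes, the solid black line all 18417 genes and the dotted line the 7367 genes past the 60th percentile. At 0 the coloured line stands at 65.8% for GO and 80.8% for rGO, and its lower end departs from the black lines for GO.

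Promoter windows of the 3 genes that GO-exposed cells held at 2-fold or more under control (3 of 73, against 0.603% of all genes and 1.14% of those past the 60th percentile) and of the subunit gene with the highest difference are shown to let their base composition be read beside the values. They are RefSeq sequences on GRCh38.p14, from 250 bases before to 50 bases after the annotated start, 5′ to 3′, with CpG dinucleotides in capitals. NDUFB3, at chr2:201071751-201072050 on the plus strand, has 51.0% G+C and 15 CpG. NDUFA5, at chr7:123601602-123601901 on the minus strand, has 42.0% G+C and 3 CpG, and COX7B, at chrX:77899218-77899517 on the plus strand, has 44.0% and 14. NDUFA3, at chr19:54102605-54102904 on the plus strand, has 65.0% G+C and 31 CpG.
NDUFB3: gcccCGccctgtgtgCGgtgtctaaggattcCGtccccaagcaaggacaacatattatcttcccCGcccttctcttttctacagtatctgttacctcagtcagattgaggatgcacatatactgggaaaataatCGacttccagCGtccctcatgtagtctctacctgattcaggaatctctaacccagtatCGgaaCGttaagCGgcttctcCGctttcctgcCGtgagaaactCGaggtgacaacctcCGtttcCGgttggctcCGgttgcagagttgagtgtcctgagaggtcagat
NDUFA5: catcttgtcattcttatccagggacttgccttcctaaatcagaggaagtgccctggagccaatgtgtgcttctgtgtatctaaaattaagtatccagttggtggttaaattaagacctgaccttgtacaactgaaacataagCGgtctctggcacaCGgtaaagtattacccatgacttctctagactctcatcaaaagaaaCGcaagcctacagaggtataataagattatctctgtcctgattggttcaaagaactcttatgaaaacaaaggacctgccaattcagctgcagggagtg
COX7B: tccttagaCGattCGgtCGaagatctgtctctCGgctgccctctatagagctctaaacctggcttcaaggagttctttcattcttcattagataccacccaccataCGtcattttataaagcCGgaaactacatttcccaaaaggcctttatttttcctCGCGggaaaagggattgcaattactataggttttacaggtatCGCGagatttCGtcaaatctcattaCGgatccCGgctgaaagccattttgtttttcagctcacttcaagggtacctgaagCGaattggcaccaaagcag
NDUFA3: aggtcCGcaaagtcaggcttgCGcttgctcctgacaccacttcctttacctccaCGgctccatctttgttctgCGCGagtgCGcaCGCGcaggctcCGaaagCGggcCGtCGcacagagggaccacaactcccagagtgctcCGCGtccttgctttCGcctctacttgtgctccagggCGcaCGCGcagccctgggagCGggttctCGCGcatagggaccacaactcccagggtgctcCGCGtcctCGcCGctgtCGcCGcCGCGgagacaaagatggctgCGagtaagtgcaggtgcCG

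Complex I takes electrons from NADH in an arm that reaches into the matrix and pumps protons in an arm that lies in the membrane. Its catalytic core, which holds the flavin, the iron-sulphur clusters and the quinone site, was represented by 6 nuclear genes, with a median GO difference of 0.02 and none past 1.5-fold. NDUFV1, the flavin-binding subunit, read 9.94 with GO, 9.65 with rGO and 9.68 in control, so it was higher by 0.26 with GO. NDUFS1, the largest core subunit with several iron-sulphur clusters, read 10.5 with GO, 10.4 with rGO and 10.4 in control. NDUFS7 and NDUFS8, which carry the last clusters before the quinone, stood at 0.12 and -0.01 with GO and at -0.08 and -0.06 with rGO. NDUFV2, an iron-sulphur protein beside NDUFV1, stood at -0.02 with GO and 0.16 with rGO, and its second probe set gave -0.03 and 0.16. The exception in the core was NDUFS3, at 10.1 with GO, 10.4 with rGO and 10.5 in control, a GO difference of -0.41.

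The accessory subunits of the matrix arm (9 genes) ran from -1.10 to 0.27 with GO, with a median of -0.27. NDUFA5, which sits on the quinone-binding part of the arm, read 6.94 with GO, 7.75 with rGO and 8.04 in control, and was thus 2.14-fold lower with GO and also the lowest of the 73 with rGO. NDUFA2, a thioredoxin-fold subunit of the NADH-oxidising module, read 9.34 with GO, 9.998 with rGO and 10.1 in control, a GO difference of -0.78. NDUFS4, whose loss in people causes Leigh syndrome, read 8.16 with GO, 9.03 with rGO and 8.88 in control. It was the only gene of the 11 past 1.5-fold that was above control with rGO (0.15), and its second probe set, at 4.50 with GO, 4.82 with rGO and 4.70 in control, gave a smaller GO difference of -0.19. NDUFA6, of the LYR motif family, stood at -0.51 with GO and -0.07 with rGO, and NDUFA9, which lies near the quinone site, at -0.27 and -0.16. In the same arm NDUFS6, which holds a zinc ion, stood at 0.27 with GO, NDUFA12 at 0.19, NDUFA7 at 0.05 and NDUFV3 at 0.03.

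NDUFAB1, the mitochondrial acyl carrier protein that binds in both arms and also serves fatty acid and lipoic acid synthesis, read 9.38 with GO, 9.65 with rGO and 9.77 in control. Its differences were -0.39 with GO and -0.12 with rGO.

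Of 18 accessory subunits of the membrane arm, 1 was past 1.5-fold, the single-pass membrane protein NDUFB3. It read 7.01 with GO, 8.14 with rGO and 8.36 in control, which made it 2.54-fold lower with GO, the lowest of all 73 subunit genes. Its GO value lies close to the filter level (6.66), and near background a fold can be understated. NDUFA1, a small X-linked subunit, followed at -0.40 with GO and -0.21 with rGO, and NDUFB6 at -0.33 with GO and near 0 with rGO. NDUFB4 is read by a pair of probe sets with identical values, at 9.42 with GO, 9.53 with rGO and 9.70 in control. At the other end NDUFA3 read 9.35 with GO, 8.82 with rGO and 8.87 in control, which is 1.39-fold higher with GO and the highest of the 73. NDUFB9 stood at 0.30 and NDUFA11 at 0.27 with GO, and both were 0.13 above control with rGO. The named families held values of both signs with GO. The 12 NDUFA genes, from both arms, had a median of 0.05 with 5 below 0, and the 11 NDUFB genes, all of the membrane arm, one of -0.17 with 9 below 0. The share below 0 over all genes was 51.1%.

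**Figure D3:**
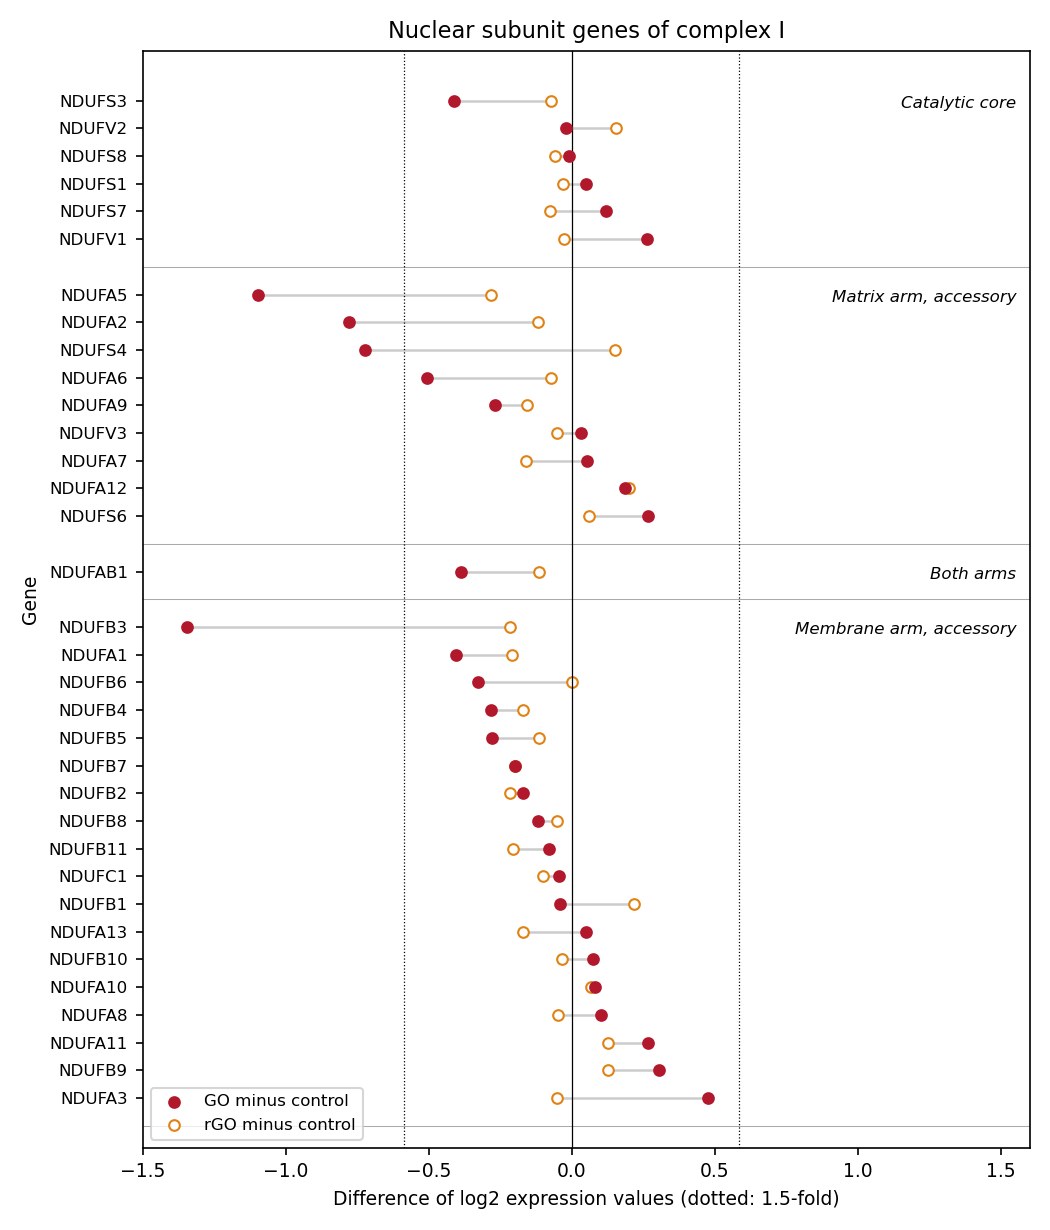
Difference of log2 expression values from control for the 34 nuclear subunit genes of complex I, grouped by place in the complex; filled points are GO and open points rGO, and dotted lines mark 1.5-fold. NDUFB3 at -1.34 and NDUFA5 at -1.10 lie farthest left with GO, and the core genes lie between -0.41 and 0.26.

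Complex II is succinate dehydrogenase, an enzyme of the citric acid cycle that is encoded by nuclear genes alone. SDHA, its flavoprotein, read 10.9 with GO, 10.9 with rGO and 10.8 in control, and stood at 0.16 with GO and 0.12 with rGO. A pair of probe sets shared by SDHA and its pseudogenes gave -0.25 and -0.14 with GO, so the direction of SDHA, and with it the complex II median, is uncertain. The membrane anchors went either way with GO, SDHC at 0.16 and SDHD at -0.13. With rGO the SDHC probe set used gave -0.03 and a second, weaker one gave -0.29, so the rGO value of SDHC depends on the probe set. Both probe sets of SDHD gave -0.13 with GO. Which genomic copy each probe set of SDHC and SDHD reads was not established.

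Complex III passes electrons from reduced coenzyme Q to cytochrome c, and with GO all 8 of its genes lay between -0.24 and 0.24. The haem protein CYC1, cytochrome c1, read 9.70 with GO, 9.57 with rGO and 9.64 in control. The core proteins, which are related to mitochondrial processing peptidases, went in opposite directions with GO: UQCRC1 stood at 0.24 and UQCRC2 at -0.23. Among the small subunits UQCRH stood at 0.23, UQCR10 at 0.05, UQCRB at 0.04, UQCR11 at -0.15 and UQCRQ at -0.24. UQCRB was the only subunit under the filter level, at 6.25 with GO, 6.42 with rGO and 6.21 in control, and its value is least certain. A probe set shared by UQCRH, its near-identical copy UQCRHL and GNA13 gave -0.31 with GO against 0.23 for the probe set of UQCRH alone, so the direction of UQCRH is uncertain. With rGO, 7 of the 8 (87.5%) were below 0, against 54.9% of all genes. They lay between -0.12 and about 0, and UQCRB stood at 0.21.

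Complex IV, cytochrome c oxidase, is built from mitochondrially encoded catalytic subunits and a ring of small nuclear ones. Of these nuclear genes 10 of 12 (83.3%) were below control with GO, against 51.1% of all genes and 48.2% of those past the 60th percentile. COX7B, an X-linked single-pass subunit, read 7.36 with GO, 8.39 with rGO and 8.59 in control, which made it 2.34-fold lower with GO. COX6C read 8.49 with GO, 9.08 with rGO and 9.21 in control, and COX7C read 9.02 with GO, 9.55 with rGO and 9.75 in control, so that both were 1.66-fold lower with GO. COX7A2, the isoform used outside heart and skeletal muscle, read 9.15 with GO, 9.56 with rGO and 9.76 in control, a difference of -0.62 with GO. These 4 genes are named for a GO value at least 1.5-fold under control, and their rGO values lay between 0.13 and 0.20 under control. COXFA4, known earlier as NDUFA4 and assigned to complex I, stood at -0.36 with GO and had the second lowest rGO difference of the 73, -0.24.

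The other subunits of complex IV had smaller differences with GO. COX4I1 and COX5A, which join the catalytic subunit COX1 early, stood at -0.12 and -0.01, and COX5B, which binds zinc, at -0.23. COX6A1 stood at -0.26 and -0.24 by its pair of probe sets. COX7A2L, which tethers complexes III and IV in supercomplexes, stood at -0.14 with GO and -0.08 with rGO. Above control with GO were COX8A at 0.21 and COX6B1, on the intermembrane side, at 0.03.

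Complex V, ATP synthase, has a catalytic head (F1), a rotating ring of c subunits, a stator stalk and small membrane subunits that join it into dimers. Below control with GO were 14 of its 16 genes (87.5%), against 51.1% of all genes and 48.2% of those past the 60th percentile. Several of the 14 lay close to 0, and the sign of ATP5F1A turned under other scalings. In the head the catalytic beta subunit ATP5F1B read 12.4 with GO, 12.5 with rGO and 12.6 in control, a GO difference of -0.24, and the alpha subunit ATP5F1A stood at -0.01. The central shaft, gamma, is encoded by ATP5F1C, which read 11.1 with GO, 11.7 with rGO and 11.8 in control and so stood at -0.74 with GO. ATP5F1D, the delta subunit at the foot of that shaft, stood at 0.20. The subunits of the head thus went apart in the GO array. ATP5F1C and ATP5F1D were read by 1 probe set each, so disagreement between probe sets is not known for them. Without replicate cultures the gap between them has no error.

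The c ring is encoded by ATP5MC1, ATP5MC2 and ATP5MC3, genes that make the same mature protein behind different import signals. ATP5MC1 read 12.7 in all arrays and stood at -0.06 with GO. ATP5MC2 stood at 0.26 with GO and 0.07 with rGO, and ATP5MC3 at -0.07 with GO and -0.20 with rGO. All 4 genes of the stator stalk were below control with GO, with ATP5PB at -0.51, ATP5PO at -0.11, ATP5PD at -0.06 and ATP5PF at -0.04. Over all genes 51.1% were below control with GO. ATP5PB read 6.51 with GO, under the filter level, against 6.89 with rGO and 7.02 in control.

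The small membrane subunits were all below control with GO, with a median of -0.31 over 5 genes, where 51.1% of all genes were below control. ATP5MK, which supports dimer stability, read 11.2 with GO, 11.8 with rGO and 11.9 in control, and its probe sets gave -0.74 and -0.75. For rGO the same probe sets gave -0.10 and -0.32, which is a wider gap than for most members. The brighter of them, which was used here, and the separate probe set of ATP5F1C had different levels but nearly identical differences, -0.74 with GO and -0.10 with rGO in both. Which genomic copy each ATP5MK probe set reads was not established, so its value is uncertain. ATP5MJ read 9.47 with GO, 10.04 with rGO and 10.13 in control, 1.59-fold lower with GO. The dimer subunits ATP5ME and ATP5MG stood at -0.31 and -0.26 with GO and at -0.16 and -0.22 with rGO, and ATP5MF at -0.05 and 0.03.

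**Figure D4:**
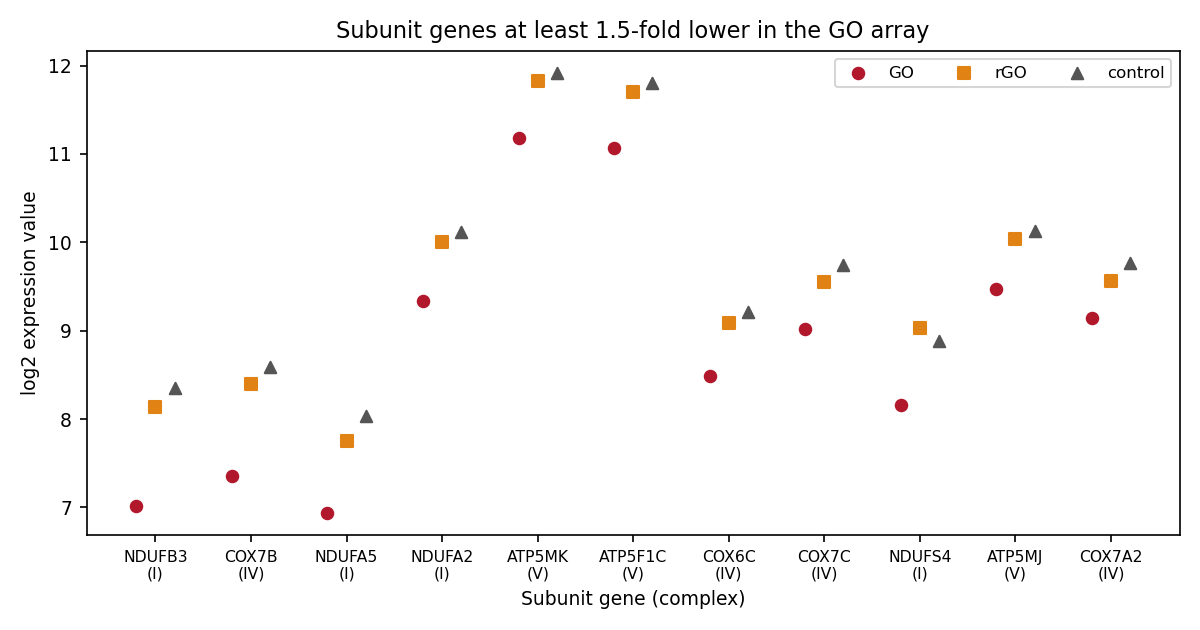
The log2 expression value in the GO, rGO and control arrays (left to right within each gene) for the 11 subunit genes past 1.5-fold on the lower side with GO, ordered by their GO difference; the complex is given in brackets, and levels of different genes are not on a common scale. The genes were chosen for a GO value under control, so the GO point lies under the control point in each by that choice. The rGO point lies under the control point except in NDUFS4. Of all 73 subunits 80.8% were below control with rGO.

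The 11 genes found by symbol that are no standard subunits were mostly near background: 8 of the 11 had means under the filter level. Isoforms of complex IV for other tissues were among them, such as COX7A1 of muscle, at 5.44 with GO, 5.63 with rGO and 5.72 in control, and COX4I2, an isoform linked to lung and low oxygen, at 6.16 with GO, 6.26 with rGO and 6.44 in control. COX6A2, the muscle form of COX6A, was past the filter and stood at -0.13 with GO. ATP5IF1, the natural inhibitor of ATP synthase when it runs backwards, read 8.30 with GO, 8.39 with rGO and 8.31 in control. The pseudogene ATP5F1EP2 was read at 10.7 with GO, 10.9 with rGO and 10.7 in control, and a probe set can also read the parent gene, so this value is uncertain. A probe set shared by ATP5F1E and a readthrough gene stood at -0.20 with GO. Those shared by NDUFC2 or NDUFS5 with other symbols stood at -0.39 and -0.67, and none of these shared values can be given to 1 gene.

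Genes that build the complexes were taken from lists. Of 52 assembly factors measured, 38 were below control with GO (73.1%, against 51.1% of all genes), 5 were at least 1.5-fold lower (9.62%, against 2.99%) and 0 at least 1.5-fold higher, and the median was -0.16. With rGO 37 were below control (71.2%, against 54.9%), with a median of -0.05 and 0 past 1.5-fold. Of 17 complex I factors 13 were below control with GO, with a median of -0.24. NDUFAF4, an early assembly factor, read 9.45 with GO, 10.4 with rGO and 10.5 in control. TMEM126B, of the membrane assembly complex, read 6.48 with GO, under the filter level, against 7.20 with rGO and 7.33 in control. TMEM186 and NUBPL, which delivers iron-sulphur clusters, stood at 0.27 and 0.13.

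Of 20 complex IV factors 13 were below control with GO, where 51.1% of all genes were, and the median was -0.16. COA6, a copper-relay protein, read 7.99 with GO, 8.81 with rGO and 9.05 in control, and CMC2 stood at -0.95 with GO. COX14 and COX15 were the highest of this list, at 0.38 and 0.28. Complex III factors (8) had a median of -0.12 with GO, with BCS1L, which inserts the iron-sulphur protein, at -0.33 and LYRM7 at -0.31, and with UQCC2 at 0.01 and UQCC4 at -0.01 at the upper end. Complex II factors (3) had a median of -0.15, from SDHAF3 at -0.20 and SDHAF4 at -0.15 to SDHAF2 at 0.02. Complex V factors (4) had one of -0.09, from TMEM70 at -0.24 and ATPAF1 at -0.13 to ATPAF2 at -0.05 and TMEM242 at 0.01.

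Carriers that serve the complexes (7 measured) had a median of -0.08 with GO and -0.04 with rGO. SLC25A4, an ADP/ATP translocase, stood at -0.55, VDAC3, a channel of the outer membrane, at -0.53, SLC25A3, the phosphate carrier, at 0.05 and VDAC2 at 0.07 with GO. CYCS, which encodes cytochrome c, read 8.19 with GO, 8.53 with rGO and 8.57 in control. Regulators of transcription and of mitochondrial DNA (14 measured) were split, with 7 below control in each exposure and medians of 0.01 with GO and -0.01 with rGO. Over all genes 51.1% were below control with GO and 54.9% with rGO. TFB2M and TFB1M stood at -0.45 and -0.34 with GO, POLG, the mitochondrial DNA polymerase, at 0.23 and PPRC1 at 0.19. Among regulators of respiratory genes NRF1 stood at -0.01, PPARGC1A at 0.07 and ESRRA at -0.09 with GO, and the partners GABPA and GABPB1 at -0.21 and -0.31.

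Promoter windows were found for 63 of the 73 subunit genes. Their median G+C share was 61.0%, against 66.0% in 6106 genes past the 60th percentile. In the 21 genes with the lowest promoter G+C (37.0% to 56.7%), 17 lay under control with GO and 7 of them by 1.5-fold or more, and the median was -0.27. The 22 genes in the middle (57.0% to 63.7%) had a median of -0.12 with 1 at least 1.5-fold lower, and the 20 highest (64.0% to 74.7%) had one of -0.01 with 2. Divided at the same G+C shares, though reaching below and above the subunits' range, genes past the 60th percentile had medians of -0.03, -0.03 and 0.04 from low to high. Of these genes 8.07%, 6.62% and 3.43% were at least 1.5-fold lower with GO from low to high G+C. Lower genes were thus also more frequent at low G+C in this wider set, from which the subunits were not removed. Below control with GO lay 53.8%, 54.9% and 43.9% of the wider set, beside 81.0%, 68.2% and 55.0% of the subunits. Across the 63 genes Spearman's rho between promoter G+C and the GO difference was 0.35, and it was 0.16 across the 6106 genes. Genes are not independent replicates and all points come from the same 2 arrays, so rho is a description. Between the mean level over the arrays and the GO difference rho was -0.0044 across the 73 genes. For rGO the rho with promoter G+C was 0.28 across the 63 genes and 0.04 across the 6106. Whether base composition plays a part in the differences was not tested.

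**Figure D5:**
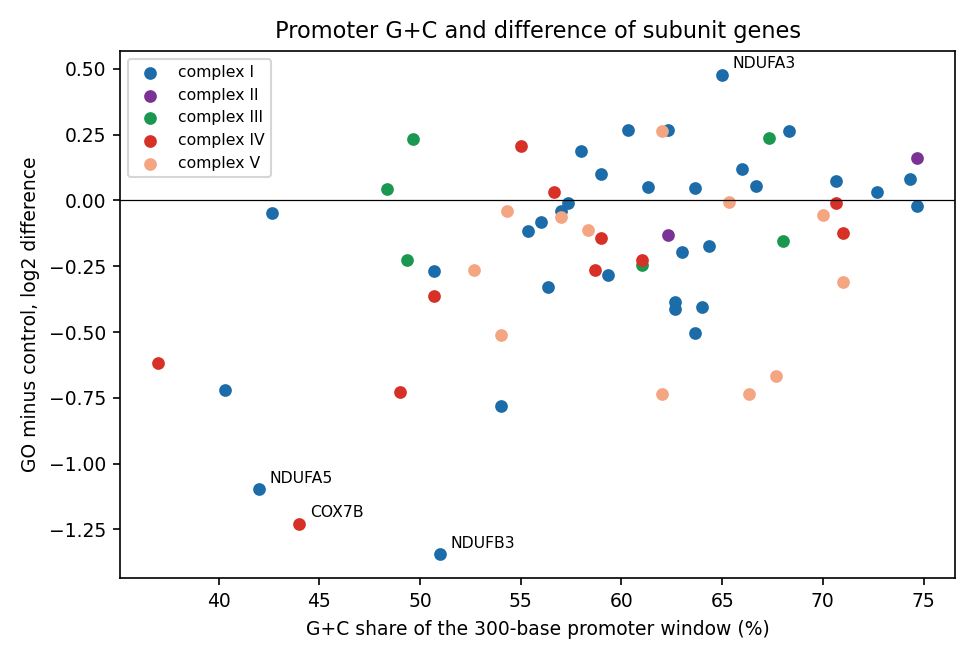
GO minus control difference of log2 values (vertical axis) against the G+C share of the promoter window (horizontal axis, %) for the 63 subunit genes with a promoter, coloured by complex. NDUFA5 (42.0%), COX7B (44.0%) and NDUFB3 (51.0%) lie lowest, and NDUFA3 (65.0%) highest, while complex V has lower genes at high G+C as well.

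Short motifs of factors linked to respiratory genes were searched on both strands of these windows, and a match is a description of letters only. The motifs can overlap one another, and overlaps were kept. GCGCATG, part of the NRF1 motif, was in 13 of 63 windows (20.6%), against 8.02% of genes past the 60th percentile, 5.82% of 14239 genes measured and 4.67% of 27305 windows in the whole table. CCGGAAG, of ETS factors such as GABPA, was in 19 (30.2%), against 21.5%, 14.6% and 10.7% of the same sets, and AAGATGGCG, of YY1, in 7 (11.1%), against 4.96%, 2.87% and 1.85%. GGGCGG, of SP1, was in 37 (58.7%), against 73.2% of genes past the 60th percentile, 8542 of the 14239 genes measured and 44.6% of the whole table. Among the 10 windows of genes 1.5-fold or more under control with GO, 1 held the ETS motif and 1 the NRF1 letters. Of the 53 other subunit windows, 18 held the ETS motif and 12 the NRF1 letters. The other motifs had similar shares in both sets. SP1 was in 6 of the 10 and 31 of the 53, and YY1 in 1 of the 10 and 6 of the 53. The ETS and NRF1 split was picked out of 4 motifs after the data were seen, and was not tested. In the sequences printed above, NDUFB3 holds the SP1 motif and the other windows none of the 4 motifs.

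By chromosome, 9 subunit genes lie on chromosome 19, and 7 of these were above control with GO, with a median of 0.05. The 447 genes past the 60th percentile on chromosome 19 had a median of 0.09, with 69.1% above control, beside 77.8% of the 9. With rGO 1 of the 9 was above control, beside 52.1% of the 447. The 3 X-linked subunit genes NDUFA1, NDUFB11 and COX7B were all below control with both materials, with a median of -0.40 with GO. NDUFB11 lay close to control with GO, at -0.08. The 189 X-linked genes past the 60th percentile had a median of 0.01 with GO, with 50.3% above control, and 39.7% were above with rGO. Of all 73 subunits 65.8% were below control with GO and 80.8% with rGO, so 3 genes are too few to set apart. Other chromosomes are not described here.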

How the data were processed

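Total RNA of 3 HepG2 cultures was labelled with biotin and hybridised to Affymetrix arrays. The deposited log2 expression values were made by the authors, for which RMA and MAS5 are listed, per the submitters' processing notes, with no role or version. The arrays had nearly equal distributions and genes were not centred; other scaling steps, the annotation and the genome build were not given in the sources used here. Probe sets (33297) were named through GEO's platform annotation: 19460 carried 1 symbol, 1754 several and 12083 none that was listed. Symbols were checked against a RefSeq table (GRCh38.p14) by Entrez ID (19429 matched, 0 changed). Each of 18417 genes took its probe set with the highest mean over the arrays. Of the 73 subunits 72 had a mean past the 40th percentile of genes (log2 6.66), and all 73 were counted without a filter.

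Differences were GO minus control and rGO minus control, counted past a fixed fold, since 1 array in each group allows no test and limits the precision. Members, roles and lists were chosen with earlier results of these data known. Named subunits were all those past 1.5-fold, the 3 lowest and 3 highest of each complex with GO, the extremes with rGO, the core and c ring genes and those whose probe sets differed by over 0.3. Other members were added as examples of their group. The 2 lowest and 2 highest of each pathway list were named, with a few further regulators. The counting and the normalizations were tested on simulated data. Computation used pandas 2.3.3 with numpy 2.4.6, statsmodels 0.14.6 for loess, scipy 1.17.1 for correlations and matplotlib 3.10.9 for figures, in Python 3.11.15.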

Additional observations from a re-analysis of the deposited data

How the results depend on the processing

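Quantile normalization, median centring, a loess on the mean level (span 0.3), averaging of a gene's probe sets, filters at the 40th and 60th percentile, and inclusion of all 84 genes found by symbol were tried. The sign of 69 of 73 subunits with GO and 67 of 73 with rGO was the same under the 3 scalings, and those that turned lay within 0.02 of control. The 11 genes at least 1.5-fold lower with GO were the same genes under these scalings, and NDUFS4 alone was lost, at -0.46, when probe sets were averaged. That setting also moved SDHC to -0.16 and ATP5MK to -0.21 with rGO. With the 60th percentile filter the complex III median with GO was -0.055. Means in place of medians with GO were -0.17 over all subunits, -0.15 for complex I, 0.064 for complex II, -0.35 for complex IV and -0.21 for complex V, since the lower tail weighs on a mean. At 2-fold 3 subunits were lower with GO (4.11%, against 0.603% of all genes). At a smaller size (0.32 on the log2 scale) 18 were lower and 1 was higher. The share over all genes was not counted at that size, so the 18 and the 1 are not read as a result. Over these alternatives, means included, the GO median ran from -0.17 to -0.057 over all subunits, from -0.15 to -0.0095 for complex I, 0.064 to 0.19 for complex II, -0.055 to 0.066 for complex III, -0.35 to -0.18 for complex IV and -0.21 to -0.063 for complex V. With rGO it ran from -0.088 to -0.061 over all subunits and was below 0 in each complex. Complex III with GO was the only one of these to change sign. No paired analysis was possible because each group holds 1 array. Signal near background limits subunits such as NDUFB3, NDUFA5, NDUFB1, ATP5PB, UQCRH and UQCRB, and assembly factors such as TMEM126B. No alternative replaces replicate cultures.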
